A study of Homo sapiens with 6 samples.

Results

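The genes followed here, 10 in all, belong to families that act on or answer to diacylglycerol without being protein kinase C (PKC) genes: the RAS and RAP exchange factors RASGRP1, RASGRP2 and RASGRP3, the diacylglycerol kinases DGKA, DGKZ, DGKD, DGKE and DGKH, and the PKC substrates MARCKS and MARCKSL1. They were taken by gene symbol from 1 deposited gene table, and all 10 were found among its 15802 genes. All 10 also passed the filter on low counts that left 11613 genes to test. The table holds bulk RNA sequencing of the human B-cell lymphoma line SC1, in 3 libraries of cells given bryostatin at 1 nM and 3 of cells given only the solvent DMSO. The libraries are named bryostatin 1 to 3 and DMSO 1 to 3. No genetic change was named for either group, and the sources used here do not give how long the cells were treated. Nor do the labels call the replicates separate cultures, so every p-value reads the spread of these libraries alone, which may be technical.

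Diacylglycerol is a membrane lipid that phospholipase C releases when a receptor such as the B-cell receptor is engaged. It recruits many proteins that carry a C1 domain, among them PKC isozymes and RASGRP exchange factors such as RASGRP1 and RASGRP3. RASGRP factors load RAS and RAP GTPases with GTP. Diacylglycerol kinases (DGKs) end the signal by phosphorylating the lipid to phosphatidic acid. MARCKS proteins hold phosphoinositides and actin at the membrane and leave it when PKC phosphorylates them. Bryostatin is a macrocyclic lactone that binds diacylglycerol-binding C1 domains in place of the lipid.

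Total expected counts (estimated reads per gene, summed over a library) were 18162161 to 18458633 with bryostatin and 18545489 to 18915394 with DMSO, so every bryostatin total was below every DMSO total. The labelled cell type was checked against markers. All 10 B-cell markers were over 1 TPM, and 5 of them rose and 0 fell by the test used below, or 8 and 0 without bryostatin 1; CD79A was at 543 to 964 TPM (transcripts per 1000000, a level per transcript length). CD3E, a defining T-cell chain, was listed at 0 in the 3 bryostatin libraries and at 0 to 0.07 TPM in the DMSO libraries. Of the other T-cell markers in the table, CD247 was at 1.71 to 3.90 TPM and LAT at 0.40 to 1.19 TPM, and the rest at most 0.09 TPM. CD247 did not pass in all 6 libraries (edgeR adjusted p = 0.436). Without bryostatin 1 it fell (log2 fold change -0.91, edgeR adjusted p = 0.00787). The summed level of the B-cell markers was 3778 to 4267 TPM with bryostatin and 2967 to 3048 TPM with DMSO, and their part in the results was not tested. The summed level of the 8 T-cell markers in the table was 2.46 to 4.52 TPM with bryostatin and 4.01 to 4.58 TPM with DMSO. Of the 7 myeloid markers in the table, S100A8 at 20.5 to 61.5 TPM and S100A9 at 38.6 to 113 TPM were present, while CD14, CSF1R, LYZ, ITGAM and CD163 were at most 0.53 TPM. The myeloid sum was 59.4 to 136 TPM with bryostatin and 104 to 175 TPM with DMSO, and its part in the results was not tested. Bryostatin 1 stood apart from its group. The chi-square per gene was 41.2 and 37.7 between it and bryostatin 2 and 3, against 2.93 between those 2 and 2.73 to 4.40 between DMSO libraries. Results that rest on it are therefore given with and without it.

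The comparison of bryostatin with DMSO asked how the transcripts of these genes differ in lymphoma cells exposed to a C1-domain ligand. RASGRP1 rose 2.76-fold, and it was the only one of the 10 genes that passed the test in all 6 libraries. The other 9 did not pass, with log2 fold changes (bryostatin over DMSO) from -0.30 for MARCKS to 0.47 for DGKA. By edgeR (quasi-likelihood, Benjamini-Hochberg adjusted p under 0.05), 1 of the 10 genes was called, against 4.56% of all 11613 genes tested. That call was a rise, and 3.72% of all genes were called higher. No member was called lower, where 0.835% of all genes were. Before adjustment 3 members were higher and 0 lower at p under 0.05, where 11.5% of all genes were higher and 7.22% lower. DESeq2 and limma-voom each called RASGRP1 alone, where they called 5.19 and 3.56% of all genes higher. Library quality weights, which gave bryostatin 1 the lowest weight, called 5 members higher against 13.7% of all genes. The median log2 fold change was 0.10 for the 10 genes and -0.00139 for all genes tested. The CPM (counts per 1000000, scaled by library) of the groups did not overlap for 3 of the 10 genes, all higher, against 27.8% of all genes in either direction and 15.3% in the higher direction.

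**Figure D1:**
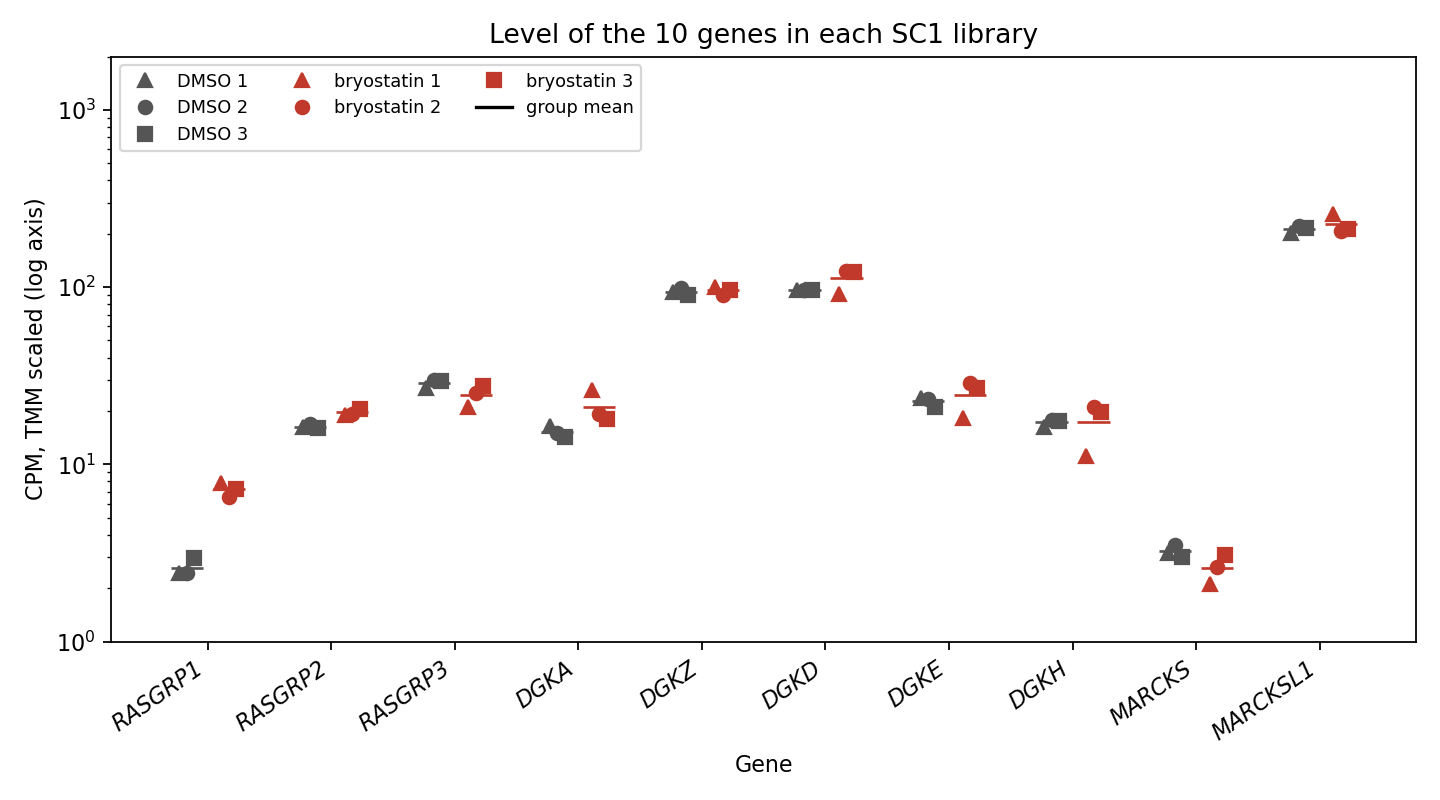
Level of each gene in every library, in CPM on a log axis; grey symbols are DMSO, red are bryostatin, shapes give the replicate number and short lines the group means of 3 libraries. The RASGRP1 symbols separate most (2.42 to 2.96 against 6.52 to 7.89 CPM), and the bryostatin 1 triangle lies apart from its group for DGKA, DGKD, DGKE and DGKH, among others.

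Among themselves the 10 genes covered a wide span of levels, given here as deposited TPM in the DMSO libraries. MARCKSL1 was highest at 255 ± 11.1 TPM (SD, n = 3), above the DMSO mean of 96.5% of the genes in the table. DGKZ followed at 43.3 ± 1.30 TPM and DGKD at 24.6 ± 0.486 TPM. The next genes lay close together, with RASGRP2 at 11.7 ± 0.247, RASGRP3 at 10.7 ± 0.609 and DGKA at 9.66 ± 0.588 TPM. DGKE stood at 5.29 ± 0.549, DGKH at 1.56 ± 0.0757, MARCKS at 1.23 ± 0.0721 and RASGRP1 at 0.857 ± 0.116 TPM. Only the libraries of RASGRP3 and DGKA overlapped among neighbours in this order. RASGRP1 was thus the lowest of the 10 with DMSO. With bryostatin its mean of 2.20 ± 0.114 TPM stood above those of DGKH and MARCKS, and the 2.12 TPM of its lowest library was above the 1.89 TPM of the highest DGKH library.

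RASGRP1 encodes an exchange factor that activates RAS and is best known in T cells. It lies on chromosome 15, 38488103 to 38564814 (GRCh38, minus strand). Its expected counts were 47, 45 and 56 in DMSO 1, 2 and 3 and 138, 121 and 132 in bryostatin 1, 2 and 3. On the CPM scale these were 2.44, 2.42 and 2.96 with DMSO and 7.89, 6.52 and 7.26 with bryostatin. Every bryostatin library was above every DMSO library by more than 2-fold, and bryostatin 1 lay close to the other bryostatin libraries. The rise was 1.47 ± 0.17 on the log2 scale (SE; 7.22 ± 0.684 against 2.61 ± 0.305 CPM, mean ± SD, n = 3 each; edgeR adjusted p = 0.00253). It ranked 73 of 11613 genes by size of rise. Without bryostatin 1 it was 1.40 (edgeR adjusted p = 5.92e-06, range over alternatives 1.64e-08 to 0.0278), and the call held in all 18 alternatives tried. In bulk RNA, more cells with a transcript and more of it per cell cannot be told apart. An unstranded count could take reads from an antisense gene that shares 105 bases, or 1.72%, of RASGRP1 exon sequence in GENCODE release 29, and whether strand was used is not stated in the labels.

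RASGRP1 was the only member called, and RASGRP2 was the exchange factor nearest to it in estimate. Their promoter windows, 250 bases before to 50 bases after the start, are therefore shown from RefSeq (GRCh38.p14), 5′ to 3′ on the gene's strand. All 10 genes matched that table, with 22 windows. RASGRP1 is at chr15:38564765-38565064 (minus strand) and RASGRP2 at chr11:64745299-64745598 (minus strand). Capitals mark matches to 4 motifs searched on both strands.
RASGRP1: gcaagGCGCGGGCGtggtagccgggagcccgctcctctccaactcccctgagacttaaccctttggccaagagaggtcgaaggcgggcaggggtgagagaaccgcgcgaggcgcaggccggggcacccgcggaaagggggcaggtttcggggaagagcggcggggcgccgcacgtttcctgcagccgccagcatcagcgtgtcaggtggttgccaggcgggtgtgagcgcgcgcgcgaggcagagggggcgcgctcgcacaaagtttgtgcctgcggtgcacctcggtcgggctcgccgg
RASGRP2: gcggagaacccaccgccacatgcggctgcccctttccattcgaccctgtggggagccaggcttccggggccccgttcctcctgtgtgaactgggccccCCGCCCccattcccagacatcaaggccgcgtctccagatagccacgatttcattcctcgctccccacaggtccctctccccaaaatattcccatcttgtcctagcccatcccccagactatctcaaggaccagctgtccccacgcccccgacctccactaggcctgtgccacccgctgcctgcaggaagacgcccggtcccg

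The motifs were those of AP-1 (TGANTCA), CRE (TGACGTCA), EGR1 (GCGNGGGCG) and SP1 (GGGCGG), of which the last 2 can overlap each other. The RASGRP1 window held 1 EGR1 match, as did 3 other windows of these genes, those of DGKA, DGKZ and DGKD, and 9.43% of 35116 promoter windows of this length had one. The RASGRP2 window held 1 SP1 match on the opposite strand, found in 12 of the 22 windows of these genes and 45% of all windows. None of the 22 windows held the AP-1 or CRE letters, which 7.71 and 1.85% of all windows had. GC content was 71.3% in the RASGRP1 window and 65% in that of RASGRP2, against a median of 58.7% over all windows.

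RASGRP2, also called CalDAG-GEFI, is a calcium-responsive exchange factor for RAP1. Its level was 16.2, 16.8 and 16.0 CPM in DMSO 1, 2 and 3 and 19.1, 19.1 and 20.6 CPM in bryostatin 1, 2 and 3. The groups did not overlap on this scale, though on the TPM scale bryostatin 1 at 11.9 lay just below DMSO 3 at 12.0. The log2 fold change of 0.26 ± 0.091 did not pass (edgeR adjusted p = 0.163). With bryostatin 1 left out RASGRP2 rose by 0.28 (edgeR adjusted p = 0.0205, between 0.0146 and 0.467 over the alternatives).

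RASGRP3 acts on both RAS and RAP and is expressed in B cells. It had 27.0, 30.0 and 29.6 CPM in DMSO 1, 2 and 3 and 21.0, 25.4 and 27.7 CPM in bryostatin 1, 2 and 3. Bryostatin 3 lay above DMSO 1, so the groups overlapped. Its log2 fold change was -0.23 ± 0.12 (edgeR adjusted p = 0.359) and -0.12 without bryostatin 1 (edgeR adjusted p = 0.278, range over alternatives 0.177 to 0.636).

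The make-up of the RASGRP transcripts differed between the groups with no overlap, while their sums overlapped. RASGRP1 made 3.58, 3.34 and 4.09% of the summed RASGRP TPM in DMSO 1, 2 and 3 and 10.5, 8.39 and 8.56% in bryostatin 1, 2 and 3. The difference was 5.46 percentage points (9.13 ± 1.15 against 3.67 ± 0.381%, n = 3 each; 2-sided exact permutation p = 0.1, the smallest that 3 against 3 can give). Without bryostatin 1 the difference was 4.80 percentage points (exact permutation p = 0.1, the smallest that 2 against 3 can give). RASGRP3 held 46.1 ± 0.940% with DMSO and 35.3 ± 3.32% with bryostatin, and RASGRP2 50.2 ± 1.03 and 55.5 ± 2.17%, with no overlap of the groups in either. The 3 shares are parts of 1 whole, so they are not separate results. The summed level was 23.3 ± 0.925 TPM with DMSO and 24.4 ± 3.43 TPM with bryostatin (exact permutation p = 0.6). RASGRP2 remained the most abundant of the 3 in the mean of both groups.

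**Figure D2:**
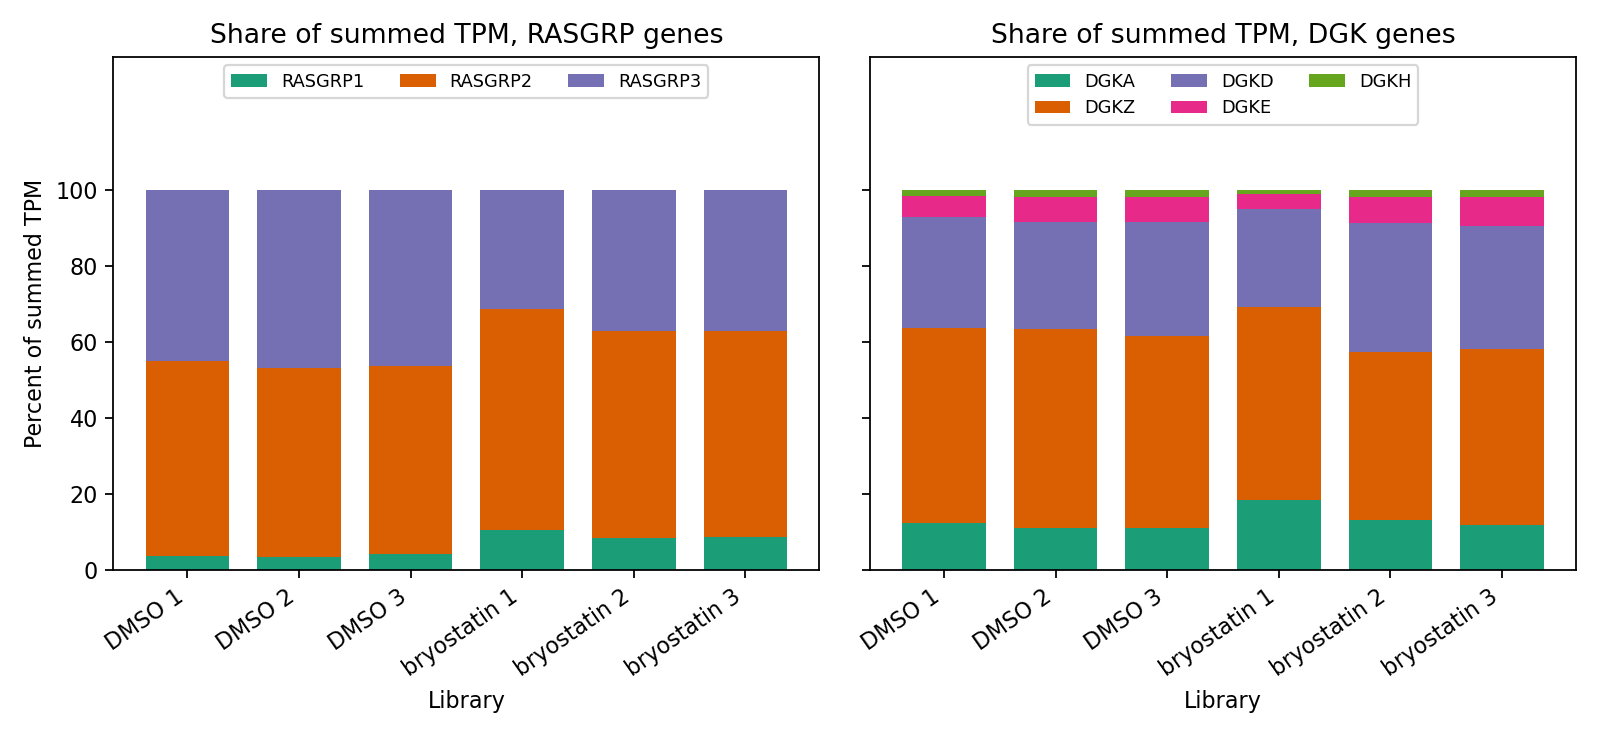
Share of each gene in the summed TPM of the 3 RASGRP genes (left) and the 5 DGK genes (right), in percent, 1 bar per library. The RASGRP1 band is 3.34 to 4.09% with DMSO and 8.39 to 10.5% with bryostatin, and among the DGK genes bryostatin 1 has the widest DGKA band, at 18.3%.

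None of the 5 diacylglycerol kinase genes passed in all 6 libraries (edgeR; before adjustment 1 higher and 0 lower at p under 0.05; 0 by DESeq2 and 0 by limma-voom), with a median log2 fold change of 0.12. Without bryostatin 1 the genes DGKA, DGKD, DGKE and DGKH rose, 4 of the 5, where 13.8% of 11790 genes tested were called higher and 13.2% lower. Over all 10 genes the count was then 6 higher and 0 lower, the other 2 being RASGRP1 and RASGRP2, with a median log2 fold change of 0.26. The direction in which bryostatin 1 departed from its group differed between the kinases, as their values show. With the length offset given below, which used all 6 libraries, DGKD alone of the 5 was called.

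DGKA, a calcium-binding kinase prominent in lymphocytes, had 16.4, 15.0 and 14.3 CPM in DMSO 1, 2 and 3 and 26.2, 19.1 and 18.0 CPM in bryostatin 1, 2 and 3. Every bryostatin library was above every DMSO library, and bryostatin 1 was the highest. The estimate was 0.47 ± 0.15 on the log2 scale (edgeR adjusted p = 0.143). Without bryostatin 1 the estimate was smaller and its spread less, and DGKA rose by 0.28 ± 0.093 (edgeR adjusted p = 0.0272, the lowest of the alternatives, the highest being 0.416). DGKA shares 353 bases of exon sequence, 3.46% of its own, with PYM1 on the other strand.

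DGKD, a kinase with a pleckstrin homology domain, had 96.0, 96.8 and 96.2 CPM in DMSO 1, 2 and 3. It had 91.1 CPM in bryostatin 1 against 124 and 121 CPM in bryostatin 2 and 3. Bryostatin 1 thus lay below all DMSO libraries and the other bryostatin libraries above them. In all 6 libraries the log2 fold change was 0.22 ± 0.12 (edgeR adjusted p = 0.367), and it was 0.34 ± 0.048 without bryostatin 1 (edgeR adjusted p = 1.51e-05, range over alternatives 1.51e-05 to 0.732).

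DGKH, a near relative of DGKD, showed the widest gap within the bryostatin group. Its level was 16.3, 17.9 and 17.5 CPM in DMSO 1, 2 and 3. It was 11.1 CPM in bryostatin 1 and 21.0 and 19.7 CPM in bryostatin 2 and 3. Bryostatin 1 had 54.6% of the mean of the other bryostatin libraries. The log2 fold change was close to 0 (0.00396 ± 0.21; edgeR adjusted p = 0.995), with a sign that changed in 11 of the 18 alternatives, and 0.24 ± 0.087 without bryostatin 1 (edgeR adjusted p = 0.0485, range over alternatives 0.0485 to 0.998).

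DGKE, which prefers diacylglycerol carrying arachidonate, had 23.7, 23.5 and 21.1 CPM in DMSO 1, 2 and 3. It had 18.2 CPM in bryostatin 1, the lowest of all libraries, and 28.7 and 27.0 CPM in bryostatin 2 and 3, the highest. For DGKE the log2 fold change was 0.12 ± 0.17 (edgeR adjusted p = 0.751) and 0.29 ± 0.081 without bryostatin 1 (edgeR adjusted p = 0.0101, range over alternatives 0.0101 to 0.988). It was -0.0067 without bryostatin 2.

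DGKZ, the most abundant kinase of the 5 and a known brake on diacylglycerol signalling in lymphocytes, had 93.7, 99.2 and 89.8 CPM in DMSO 1, 2 and 3 and 101, 90.4 and 96.1 CPM in bryostatin 1, 2 and 3. The groups overlapped throughout. The log2 fold change was 0.024 ± 0.076 (edgeR adjusted p = 0.905) and -0.016 without bryostatin 1, with a range of -0.069 to 0.063 over alternatives. By TPM, DGKZ held 51.3 ± 0.937% of the 5 kinases with DMSO and 47.1 ± 3.26% with bryostatin. DGKA and DGKZ together held 62.7 ± 1.16% with DMSO and 61.5 ± 6.56% with bryostatin (2-sided exact permutation p = 0.9). That share was 69.0% in bryostatin 1 and 57.4 and 58.0% in bryostatin 2 and 3, on opposite sides of the DMSO range of 61.4 to 63.5%. Without bryostatin 1 the difference was -5.04 percentage points (exact permutation p = 0.1, the smallest that 2 against 3 can give).

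**Figure D3:**
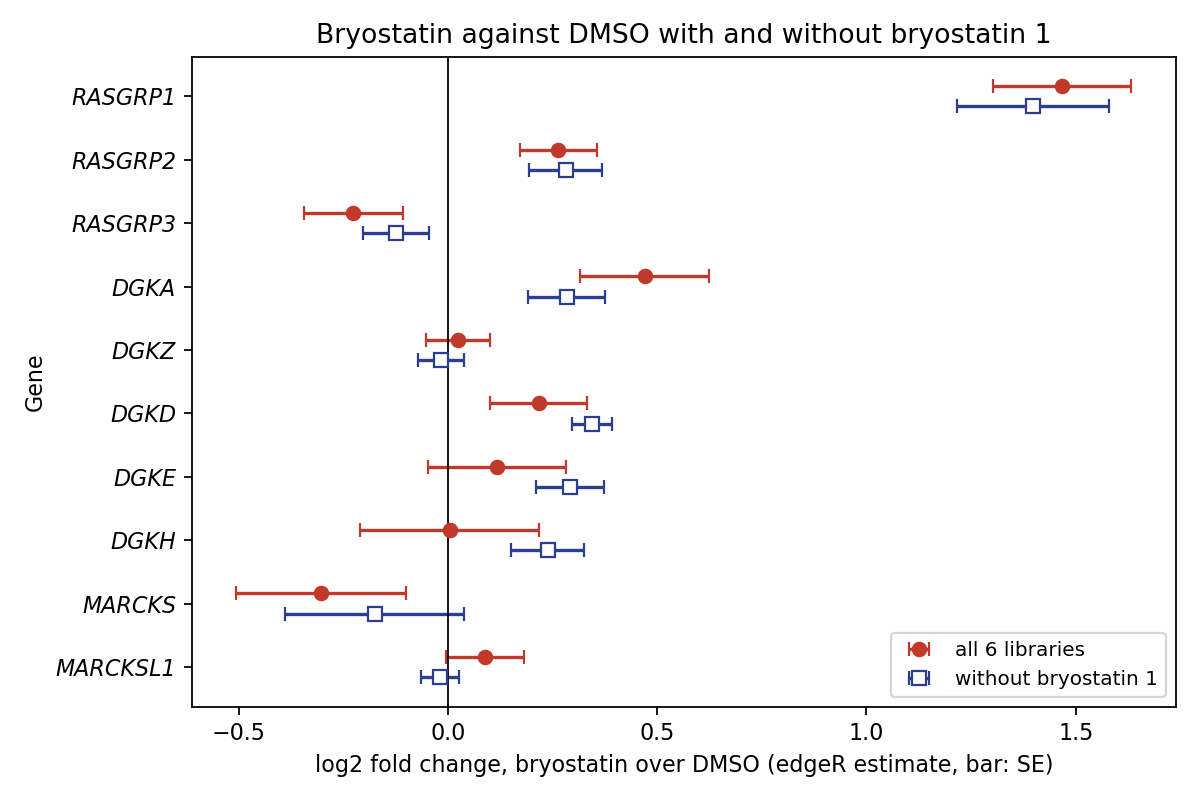
Log2 fold change (bryostatin over DMSO, edgeR estimate, bars SE) of the 10 genes with all 6 libraries (filled circles) and without bryostatin 1 (open squares). RASGRP1 is at 1.47 and 1.40, while DGKD, DGKE and DGKH lie further above 0 and have shorter bars without bryostatin 1.

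MARCKSL1, the smaller relative of MARCKS, was the most abundant of the 10. It had 202, 222 and 216 CPM in DMSO 1, 2 and 3 and 258, 208 and 213 CPM in bryostatin 1, 2 and 3. Bryostatin 1 was the highest library and the other bryostatin libraries lay within the DMSO range. Its log2 fold change was 0.088 ± 0.093 (edgeR adjusted p = 0.663) and -0.018 without bryostatin 1.

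MARCKS itself was near the lower end of the 10, with expected counts of 61, 65 and 57 in DMSO 1, 2 and 3 and 37, 49 and 56 in bryostatin 1, 2 and 3. These were 3.17, 3.50 and 3.01 CPM with DMSO and 2.11, 2.64 and 3.08 CPM with bryostatin, and bryostatin 3 lay above DMSO 3. On the TPM scale the groups just failed to overlap, at 0.67 to 1.16 TPM with bryostatin and 1.17 to 1.31 TPM with DMSO. For MARCKS the log2 fold change was -0.30 ± 0.20 (edgeR adjusted p = 0.474) and -0.18 ± 0.21 without bryostatin 1. MARCKSL1 supplied 99.5 ± 0.0337% of the summed TPM of the pair with DMSO and 99.6 ± 0.103% with bryostatin (2-sided exact permutation p = 0.2).

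The place of bryostatin 1 varied with transcript length, both for these genes and for all genes tested. The effective length implied by each gene's count and FPKM (the deposited level per transcript length and library size) was used. With all tested genes cut into 4 bins of about equal number by that length, the median log2 ratio of bryostatin 1 to the mean of bryostatin 2 and 3 was 0.28, 0.087, -0.081 and -0.30 from the shortest to the longest bin. For MARCKSL1, at 1282 bases, the ratio was 0.29. For DGKD, DGKE and DGKH, at 5997, 6600 and 16994 bases, it was -0.43, -0.61 and -0.87. RASGRP1, in the same longest bin at 4703 bases, had 0.20, and DGKA, at 2417 bases, had 0.50 where its bin had 0.087. RASGRP2, in the bin of DGKA, had -0.058. RASGRP3, MARCKS and DGKZ lay in the bin with -0.081 and had -0.34, -0.44 and 0.11. Bryostatin 2 and 3 varied with length too, less widely. Their median log2 ratios to the DMSO mean ran from -0.075 and -0.049 in the shortest bin to 0.059 and 0.042 in the longest. With a length offset for each library, chosen after seeing the data, RASGRP1 and DGKD were called higher, against 6.74% of all genes. Their log2 fold changes were 1.50 and 0.25, while DGKE and DGKH did not pass (edgeR adjusted p = 0.425 and 0.583). The part of length in the other results was not tested.

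**Figure D4:**
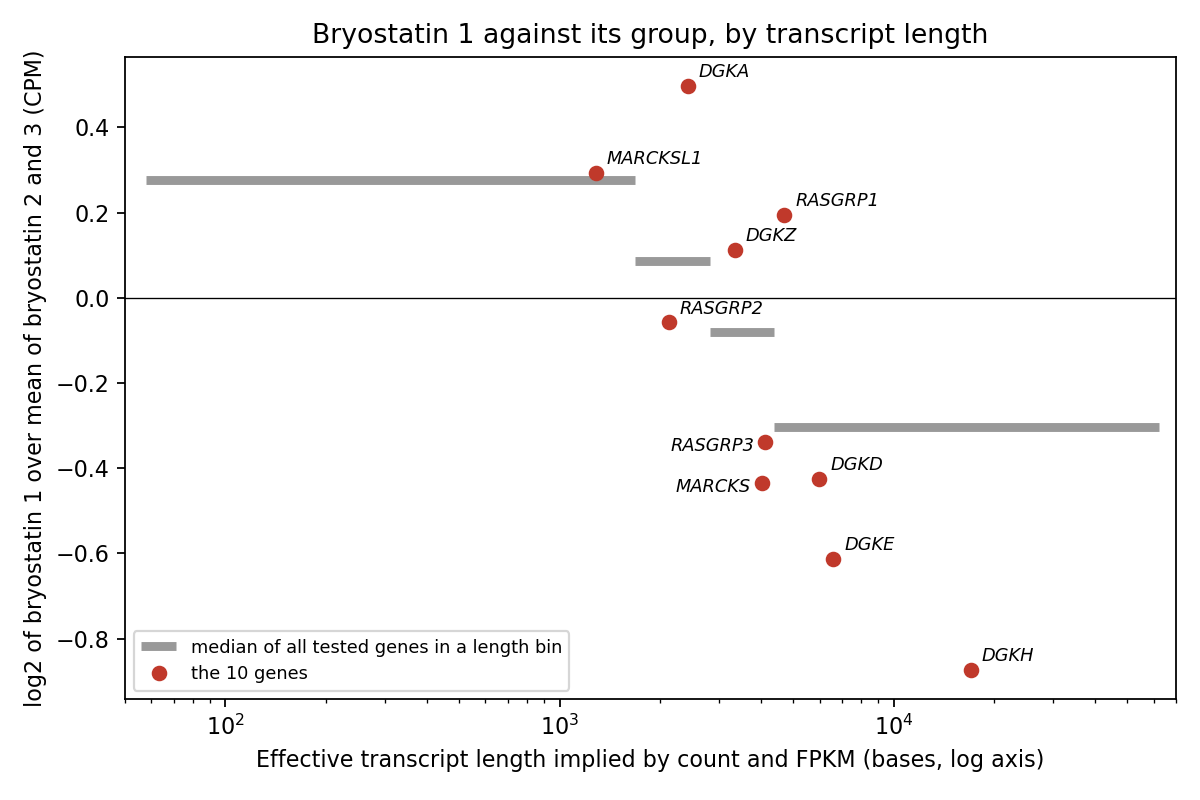
Log2 ratio of bryostatin 1 to the mean of bryostatin 2 and 3 (CPM) against the effective transcript length implied by count and FPKM (bases, log axis). Points are the 10 genes and grey bars span the 4 length bins of all tested genes at their medians, which run from 0.28 to -0.30. RASGRP1, DGKA, DGKZ and, narrowly, MARCKSL1 lie above the bar of their bin. RASGRP2, RASGRP3, MARCKS, DGKD, DGKE and DGKH lie below it.

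The implied length is an average over the isoforms behind a gene's estimate. For RASGRP1 the highest over the lowest library was 1.01, from 4659 to 4723 bases, with the groups overlapping. For DGKE it was 1.41, from 5551 bases in bryostatin 3 to 7819 bases in DMSO 1, also with the groups overlapping, so TPM and CPM of DGKE order the libraries differently. For the other 8 genes it was at most 1.06.

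The counts for lists of genes around these 10 stand beside the 3.72% of all genes called higher and 0.835% called lower in all 6 libraries, and 13.8 and 13.2% without bryostatin 1. Of other members of the families, DGKQ, a further diacylglycerol kinase, was the only one tested, at 0.26 on the log2 scale (edgeR adjusted p = 0.377). RASGRP4, DGKB and DGKI had at most 5 counts in any library. Of 12 genes tested from a list of other C1-domain effectors, 2 rose, 0 fell and 10 did not pass, with a median log2 fold change of -0.13. Before adjustment 3 were higher and 1 lower at p under 0.05, and DESeq2 called 3 in all. Leaving out bryostatin 1 gave 3 higher and 1 lower of 13 tested, and the median was 0.018. These counts and medians include UNC13D, which itself has no C1 domain. It had 0.61 in all 6 libraries (edgeR adjusted p = 0.0871) and 0.56 without bryostatin 1 (edgeR adjusted p = 0.0102). Both risers in all 6 libraries encode exchange factors of the VAV family, whose C1 domain is not known to bind diacylglycerol. VAV3 rose by 0.73 from 27.4 ± 0.947 to 45.3 ± 4.36 CPM (edgeR adjusted p = 0.00533), and VAV1 by 0.43 from 49.1 ± 1.79 to 65.9 ± 3.48 CPM (edgeR adjusted p = 0.0220). Among TPM and the library omissions, VAV3 lost its call on TPM and without DMSO 2 or 3, and VAV1 on TPM and without bryostatin 3 or any 1 DMSO library, with a highest adjusted p of 0.0794 for VAV3, on TPM, and 0.164 for VAV1, without DMSO 1.

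Of 8 phospholipase C genes, which make diacylglycerol, none passed (edgeR; before adjustment 1 higher and 2 lower at p under 0.05; 0 by DESeq2 and by limma-voom), with a median of 0.088. Without bryostatin 1 the list had 1 higher, PLCG2, and 1 lower, PLCG1, and the median was -0.057. In all 6 libraries PLCG2, the isoform downstream of the B-cell receptor, had 0.23 (409 ± 9.45 against 478 ± 32.2 CPM, edgeR adjusted p = 0.120), and PLCB4 had -0.68 (edgeR adjusted p = 0.178). Of 13 other enzymes of diacylglycerol, phosphatidate and monoacylglycerol, 1 fell, 0 rose and 12 did not pass, with a median of 0.10. Before adjustment 2 were higher and 1 lower at p under 0.05, and DESeq2 called 3 in all. Without bryostatin 1 the list had 4 higher and 3 lower of 14 tested, and the median was -0.057. The 1 that fell was MGLL, monoacylglycerol lipase, which acts on monoacylglycerol and not on diacylglycerol or phosphatidate. MGLL fell by 0.62 on the log2 scale from 38.0 ± 0.505 to 24.7 ± 1.24 CPM (edgeR adjusted p = 0.00535), with 0.0502 and 0.0514 without DMSO 1 and 3 (range over alternatives 5.43e-07 to 0.0514). AGPAT2, which makes phosphatidic acid, had 0.59 (edgeR adjusted p = 0.0711). Genes of the same family differed in direction. AGPAT1 of this list had -0.13, and outside the list AGPAT3 had 0.18, AGPAT4 -0.84 and AGPAT5 -0.23, none of which passed.

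Of 17 genes of RAS and RAP GTPases and the ERK cascade, none passed (edgeR; before adjustment 0 higher and 2 lower at p under 0.05; 0 by DESeq2 and by limma-voom), with a median of -0.026. With bryostatin 1 left out the list had 3 lower, HRAS, MAP2K2 and ARAF, and 0 higher, and the median was 0.0095. In all 6 libraries the smallest p values were those of ARAF (log2 fold change -0.21, edgeR adjusted p = 0.220) and HRAS (-0.25, edgeR adjusted p = 0.263). Of 19 regulators of RAS and RAP, 2 rose, 0 fell and 17 did not pass, with a median of 0.092. Before adjustment 6 were higher and 1 lower at p under 0.05, and DESeq2 called 4 in all. Leaving out bryostatin 1 gave 8 higher and 1 lower, and the median was 0.27. Both risers in all 6 libraries encode GTPase-activating proteins, which switch these GTPases off. SIPA1, which acts on RAP1, rose by 0.84 from 22.6 ± 3.09 to 40.4 ± 7.21 CPM (edgeR adjusted p = 0.0202), and RASA3 by 0.73 from 3.26 ± 0.191 to 5.42 ± 0.188 CPM (edgeR adjusted p = 0.0312). Among TPM and the library omissions, SIPA1 lost its call without bryostatin 3 or any 1 DMSO library (highest adjusted p 0.136), and RASA3 without any 1 library other than bryostatin 1 (highest 0.165) and with TPM.

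By the rule for likeness, the genes whose log2 CPM followed RASGRP1 most closely over the 6 libraries, among 8179 with a mean of at least 10 CPM, were BNIP2 (Pearson r = 0.999), FOXP4 (0.999) and ATP10D (0.997). The measure reads the order and spacing of the libraries, which 2 separated groups nearly fix, and not the size of a change. ATP10D rose by 1.10 (edgeR adjusted p = 0.00184), while BNIP2 and FOXP4 had 0.16 and 0.26 and did not pass.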

How the data were processed

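A single table was deposited by the authors, giving each library 3 values a gene: expected counts, TPM and FPKM. Expected counts, deposited without scaling, share reads that match several transcripts, and 9 of the 10 genes had whole counts in every library. FPKM and TPM values, also deposited by the authors, divide by effective transcript length, and TPM sum to 1000000. The build GRCh38, DESeq2 1.40.2, RSEM 1.2.28 and HISAT2 2.2.1 appear in the submitters' processing notes, whose use of each is not given in the sources used here. Per the labels' protocols, the RNA was selected for poly(A) tails, primed at random and sequenced from both ends.

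Expected counts were rounded and tested for all genes with edgeR 4.0.16 (R 4.3.3), by its 2-sided quasi-likelihood test with TMM factors, the robust option and filterByExpr; p-values were adjusted by Benjamini-Hochberg over 11613 genes and called at 0.05. The fit was also run on counts simulated with known changes, whose outcome is not given here. Those counts held no library set apart and no trend with length, so they do not speak for either. SE is the size of the log2 fold change over the root of F. CPM use the TMM factors. Effective length was the count divided by FPKM and by the total deposited count, so its absolute size depends on that total. TPM compare levels between genes; their shares were compared by exact permutation over 20 splits. Alternatives were RLE, upper quartile or no factors, a minimum mean count of 10 or no filter, DESeq2 1.42.0, limma 3.58.1 (voom, with and without library quality weights, and log2 of TPM or FPKM plus 1), a replicate block, each library left out and, added later, a length offset.

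The members and lists were chosen with earlier results of these data known. Named were the 10 members, in each of 6 lists the genes called and the 2 with the smallest p, and 3 genes most like a called member. Gene coordinates come from RefSeq (GRCh38.p14), 1-based. Protein sequences were not used here.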

Additional observations from a re-analysis of the deposited data

How the results depend on the processing

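RASGRP1 kept its direction and call in all 18 alternatives (log2 fold change 0.68 to 1.57, lowest on FPKM plus 1). No member was called lower in any of them. The count called higher stayed at 1 in 15, and was 5 with library quality weights, 6 without bryostatin 1 and 2 with the length offset, so with 1 library left out it ran from 1 to 6. DGKZ, near 0, took the other sign with library size only (-0.016), quality weights (-0.0011), TPM (-0.069) and FPKM (-0.015), and ran from -0.016 to 0.063 with 1 library left out. DGKH took it with RLE (-0.0024), library size only (-0.027), no filter (-0.0071), the replicate block (-0.040), DESeq2 (-0.0026), limma-voom (-0.045), TPM (-0.059) and FPKM (-0.026), and ran from -0.16 to 0.24 with 1 library left out. DGKE ran from -0.0067 to 0.29 in that way, and MARCKSL1 from -0.018 to 0.14, with -0.0098 on TPM. The cause was not tested. The DGKA and DGKZ share differed by -5.04 to 0.784 percentage points with 1 library left out, above 0 without bryostatin 2 or 3. The RASGRP1 share differed by 8.64 percentage points on CPM in place of TPM.

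Libraries of one number did not deviate together (correlations -0.21, -0.17 and 0.031 for numbers 1, 2 and 3), and 1 of the 6 libraries, DMSO 3, correlated best with its own number. With the replicate block 1 member was called higher and 0 lower, with 338 calls over all genes in place of 529, and VAV1 and RASA3 were not called (edgeR adjusted p = 0.0817 and 0.116). RASGRP1 rests on at most 138 counts per library and MARCKS on at most 65, which limits what could be detected.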
